A study of Mus musculus with 9 samples.

Results

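Cytosolic ribosomal proteins are the protein part of the ribosomes that translate nuclear mRNAs. The 47 genes described here are those whose symbol starts with Rpl or Rps followed by a number, together with Rplp0, Rplp2 and Rpsa, and that at least 1 probe set of the array named alone. They were read by 98 probe sets and stood among 12393 genes named alone on the array. The kinases of the Rps6k group, Rps19bp1, Rpl7l1 and pseudogenes were left out. Of the members, 25 encode proteins of the large subunit and 22 of the small subunit, and 5 are paralogs of a standard ribosomal protein (Rpl22l1, Rpl39l, Rpl3l, Rps27l and Rps4l). No filter on low values was used, so all 47 genes entered every count. A further 28 genes with such symbols, among them Rpl5, Rpl10, Rpl23, Rpl24 and Rplp1, were named only together with other genes, mostly their own pseudogenes, and are not members.

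The arrays measured total RNA of whole skin, taken 30 days after birth from mice of a mixed C57BL/DBA/FVB strain. The study, whose title concerns a constitutively active Akt, compared control mice (LC, n = 3 arrays) with the transgenic lines L60, L84 and LA (n = 2 arrays each). Each array held a pool of RNA from mice of the same genotype. The promoter of the transgene, what sets the 3 lines apart, and the number and sex of the mice in a pool are not given in the sources used here, so the p-values measure the spread between pools. Each deposited value was a score: every probe set had a mean of 0 and an SD of 1 over the 9 arrays. A difference between groups is therefore in units of the SD of a probe set over these arrays, averaged over the probe sets of a gene, and is neither a fold change nor a level. For the same reason the scores cannot show whether the markers of skin were present, and levels of different genes cannot be compared.

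Cells make ribosomal proteins in matched amounts, and the mRNAs of nearly all of them start with a C followed by a run of pyrimidines, the 5′ terminal oligopyrimidine (TOP) motif. Akt is a kinase that acts through the mTORC1 complex, among other routes, and mTORC1 raises the translation of TOP mRNAs; its downstream kinases phosphorylate the ribosomal protein S6, encoded by Rps6. Ribosomal protein mRNA is abundant in growing cells, and in mouse skin inherited changes in Rps19, Rps20 and Rpl24 are known to alter pigmentation.

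The DNA around the annotated start of 8 members is shown because the TOP motif is the feature by which mTORC1 is known to act on the translation of these mRNAs. The arrays measured mRNA and not its translation. The sequences come from RefSeq (GRCm38.p6). Each holds the last 15 bases before the start and the first 15 from it, on the strand of the gene. Capitals mark a tract made of a C followed by at least 4 further C or T that begins within 10 bases of the start. Rpl35 (chr2:39005117-39005146, minus strand) had the smallest adjusted p of the members between LA and LC. Rpl14 (chr9:120571502-120571531, plus), Rps26 (chr10:128626492-128626521, minus) and Rpl22l1 (chr3:28805493-28805522, plus) had the lowest differences between LA and LC. Rpl38 (chr11:114668565-114668594, plus) had its highest scores in L60, Rps10 (chr17:27635230-27635259, minus) was read by 6 probe sets, and Rps6 (chr4:86857353-86857382, minus) and Rpl3l (chr17:24727811-24727840, plus) did not follow the other members.
Rpl35: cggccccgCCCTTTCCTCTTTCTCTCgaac
Rpl14: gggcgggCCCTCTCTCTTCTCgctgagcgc
Rps26: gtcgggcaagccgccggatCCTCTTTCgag
Rpl22l1: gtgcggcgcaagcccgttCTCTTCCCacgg
Rpl38: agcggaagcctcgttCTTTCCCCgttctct
Rps10: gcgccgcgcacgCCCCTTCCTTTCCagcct
Rps6: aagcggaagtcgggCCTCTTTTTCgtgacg
Rpl3l: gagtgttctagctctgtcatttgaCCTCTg

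A start was found in the table for 41 of the 47 members (Rpl7, Rpl8, Rps14, Rps20, Rps29 and Rps4l were not matched), and 27 of them (65.9%) had such a tract, against 36.9% of the 9883 genes of the array with a start in the table. The tract ran over 18 bases in Rpl35 and over 5 in Rpl3l. From 250 bases before to 50 after the start, the letters CCGGAAG or their reverse complement CTTCCGG, a core bound by ETS factors, occurred in 21 of the 41 members (51.2%) and in 16.4% of the array's genes. The letters AANATGGC or GCCATNTT, a core of the factor YY1, occurred in 6 members (14.6%) and in 8.55% of the array's genes, and TATAAA or TTTATA in 6 members (14.6%) and in 11.9%. These matches are descriptions of the letters and not of binding. Between LA and LC the median difference was -1.41 for the 27 members with a tract and -1.25 for the 14 without, and between L84 and LC it was -0.613 and -0.834. The difference between the members with and without a tract was not tested.

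By the mean of the array medians, the ribosomal protein genes were lowest in LA, low in L84 and highest in L60. The first LA median, however, lay between the L84 medians. The median member score was 0.275, 0.413 and 0.446 on the LC arrays, 0.515 and 0.714 on the L60 arrays, -0.110 and -0.561 on the L84 arrays and -0.360 and -1.44 on the LA arrays. Both L60 medians were above, and all 4 medians of L84 and LA below, the 3 LC medians. Of the 47 members, 28, 36 and 37 scored above 0 on the LC arrays, 39 and 41 on the L60 arrays, 20 and 8 on the L84 arrays, and 10 and 3 on the LA arrays. Over all genes the share above 0 lay between 41.9% and 54% on every array, and the median between -0.140 and 0.0713. The pooled SD of the member median within genotypes was 0.379, larger than the median member difference of 0.261 between L60 and LC. In whole tissue, fewer cells of a type that is rich in these mRNAs and less of the mRNA per cell cannot be told apart.

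**Figure D1:**
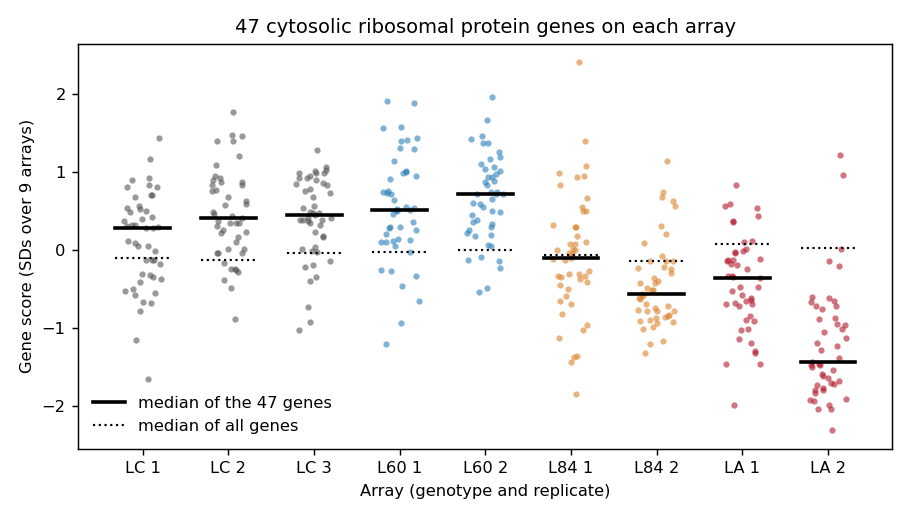
Score of each of the 47 ribosomal protein genes (points) on each of the 9 arrays, in SD units of the gene's probe sets, with the median of the members beside that of all genes. The member median is above 0 on every LC and L60 array and below 0 on every L84 and LA array, from 0.714 on the second L60 array to -1.44 on the second LA array.

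The second LA array stood apart from the rest. It held the lowest score of 30 of the 47 members, against 20.3% of all genes. Its scores over all genes were also the most widely spread (SD 1.2), followed by those of the first L84 array (SD 1.13). The 2 L60 arrays held the highest score of 12 and 13 members, against 9.9% and 8.2% of all genes. Against the mean of LC, the median member difference was -0.895 on the first LA array and -1.82 on the second, so it was negative in each LA pool but about as large in the first LA pool as in the second L84 pool (-0.839).

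The members varied together across the arrays. Over 9 arrays the median correlation between 2 members was 0.529, against 0.005 between 2 genes drawn from the whole array, and 39 of 47 members correlated above 0.5 with the median of the other members. These correlations are descriptions, since all genes share the same 9 arrays. The members with negative correlations were Rps6 (-0.836), Rpl3l (-0.239) and Rps27 (-0.059).

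**Figure D2:**
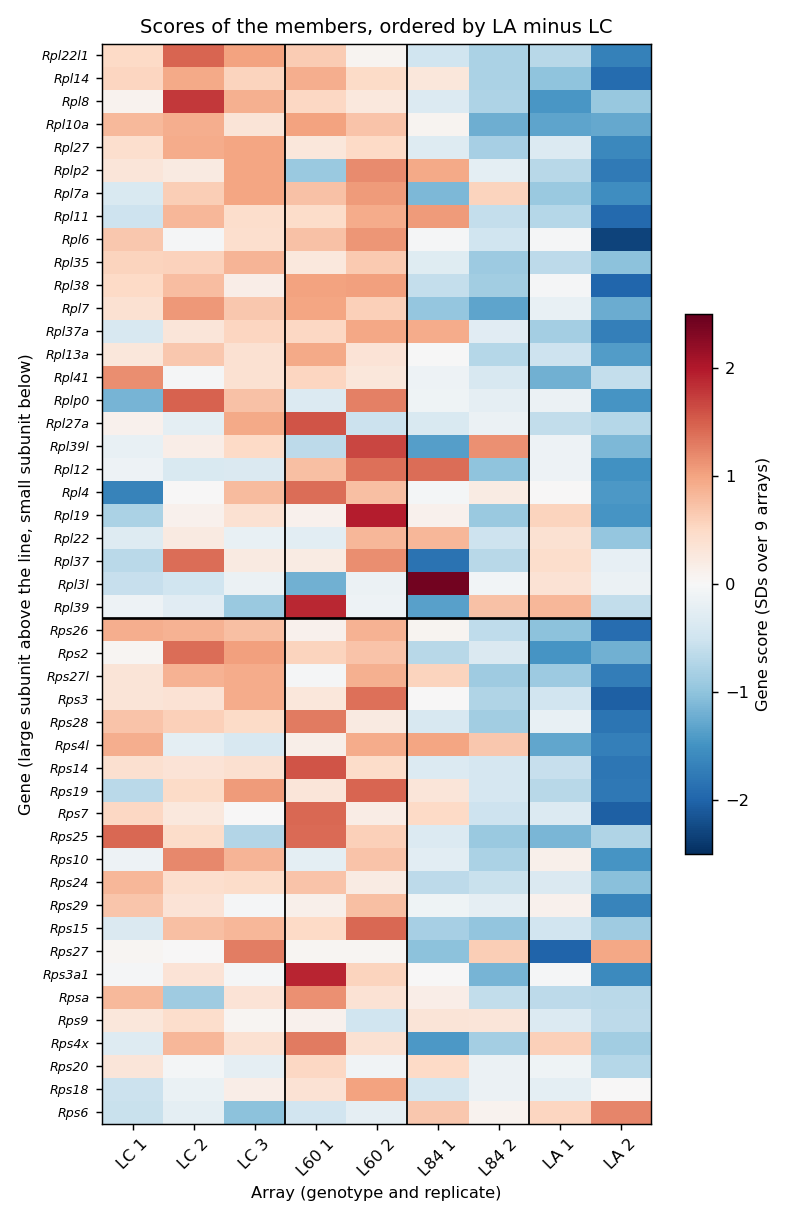
Scores of the 47 members (rows, large subunit above the line and small subunit below it, ordered by LA minus LC within each) on the 9 arrays (columns), in SD units. Most rows are low on the L84 and LA arrays and high on the LC and L60 arrays, and Rps6 shows the opposite pattern.

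Several control probe sets and cell type markers also differed between these arrays. The 24 poly-A control probe sets (dap, lys, phe and thr, bacterial transcripts that can be added to RNA before labelling) averaged 0.877, 0.987 and 0.22 in LC, 1.03 and 0.187 in L60, -0.257 and -1.32 in L84 and -0.846 and -0.877 in LA; whether they were added here is not given in the sources used here. The 3 probe sets of 18S rRNA averaged 1.13 on the first LC array, 2.09 on the first L60 array and 0.339 on the first L84 array, and between -0.642 and -0.528 on the others. Without these 3 arrays, the 1 remaining L84 score lay below both remaining LC scores for 35 members (43.7% of all genes), and both LA scores did for 31 members (27.5%). Markers of dividing cells (7 of 8 measured) had medians between 0.461 and 0.506 in LC, 0.751 and 1.07 in L60, -0.977 and 0.127 in L84, and -1.32 and -1.48 in LA. The 8 hair shaft keratins had medians between 1.07 and 1.18 in LC and between -1.05 and -0.906 in L84 and LA. The 4 measured melanocyte markers had medians between 0.723 and 1.08 in LC and between -1.17 and -0.684 in L84 and LA. In L60 the hair shaft medians were 0.218 and 0.360, both below those of LC. The melanocyte medians in L60 were 0.195 and 0.772, of which the second lay within the range of LC. Other marker lists went both ways. Against LC, the median differences in L84 and LA were 1.568 and 1.127 for basal keratinocytes and 1.287 and 1.083 for skeletal muscle. They were 1.026 and 1.199 for lymphocytes, -0.221 and 1.245 for macrophages and dendritic cells, and -0.402 and 0.774 for fibroblasts. They were -1.567 and -0.984 for adipocytes, -1.156 and -0.61 for red blood cells, and -0.334 and -0.585 for endothelium. The part of what the control probe sets measure, or of any of these cell types, in the ribosomal protein result was not tested.

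Each transgenic line was compared with the control mice, whose relation to the lines is not given in the sources used here. In L60, the members scored slightly higher than in LC. The median difference was 0.261 (0.0780 over all genes), less than the SD of the member median within genotypes and 0.141 without the second L60 array, with 14 of 47 members lower than LC (45.2% of all genes) and 33 higher. Both L60 arrays lay above all LC arrays for 6 members (14.4% of all genes) and below them for 0 (10.8%). No member passed the limma linear model at an adjusted p under 0.05, nor did any gene of the array (0%), and at an unadjusted p under 0.05, 1 member was higher (2.45% of all genes) and 0 were lower (2.27%). The moderated limma test called 0 members, with 0 at the unadjusted threshold (3.75% of all genes); in simulated data it recovered no changed gene, so its counts of 0 carry no information here. The difference of the members as a set from other genes was not tested.

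The highest members in L60 were Rpl4 (1.36), Rpl12 (1.36) and Rpl39 (1.33), all of the large subunit. Rpl39 scored 1.89 and -0.129 in L60, and its difference lay between 0.321 and 2.34 when a replicate was left out. Rpl4 scored -1.66, 0.0100 and 0.786 in LC and 1.40 and 0.744 in L60, so the groups overlapped. Rpl12 scored -0.134, -0.385 and -0.354 in LC and 0.752 and 1.38 in L60, with no overlap, yet also 1.39 on the first L84 array. The lowest were Rpl22l1 (-0.634), Rpl8 (-0.533) and Rps9 (-0.447). All 6 had an adjusted p of 1 in the limma model.

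In L84, most members scored below LC. The median difference was -0.678 (0.003 over all genes), with 37 of 47 members lower (49.9% of all genes). Both L84 arrays lay below all LC arrays for 21 members (14.7% of all genes) and above them for 2 (13.8%). The median was -0.613 for the large subunit (19 of 25 lower) and -0.723 for the small subunit (18 of 22 lower). No member passed the adjusted threshold in the limma model, where 0.565% of all genes did, and the smallest adjusted p of a member was 0.169. At an unadjusted p under 0.05, 10 members were lower (6.45% of all genes) and 1 higher (5.76%). The moderated test called 0 members and had 5 at the unadjusted threshold (12.6% of all genes). Without the first L84 array, whose scores were widely spread, the remaining L84 score lay below all LC scores for 31 members (35.6% of all genes).

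Rpl7, a large subunit protein, was the lowest member in L84 relative to LC. It scored 0.374, 1.08 and 0.680 in LC, 0.981 and 0.592 in L60, -0.962 and -1.32 in L84, and -0.194 and -1.24 in LA. All scores of L84 and LA were below all of LC and L60. The difference between L84 and LC was -1.85 ± 0.395 (SE; adjusted p = 0.192, limma). It was followed by Rpl22l1 (-1.63 ± 0.444, SE) and Rpl37 (-1.59 ± 0.763, SE), a large subunit protein. Rpl37 scored -0.674, 1.40 and 0.224 in LC and -1.86 and -0.692 in L84, so the higher L84 score lay just under the lowest LC score.

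In LA, nearly all members scored below LC. The median difference was -1.40 (0.247 over all genes), with 43 of 47 members lower (43.9% of all genes). Both LA arrays lay below all LC arrays for 28 members (21% of all genes) and above them for 1 (27.8%). The median was -1.43 for the large subunit (23 of 25 lower) and -1.30 for the small subunit (20 of 22 lower). No member passed the adjusted threshold in the limma model, where 1.8% of all genes did, and the smallest adjusted p of a member was 0.0654. At an unadjusted p under 0.05, 19 members were lower (9.91% of all genes) and 1 higher (10.9%). The moderated test called 0 members and had 24 at the unadjusted threshold (26% of all genes). Without the second LA array the median difference was -0.895, and the remaining LA score lay below all LC scores for 29 members (29.2% of all genes). The 3 comparisons share the LC arrays, so they are not independent of each other.

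**Figure D3:**
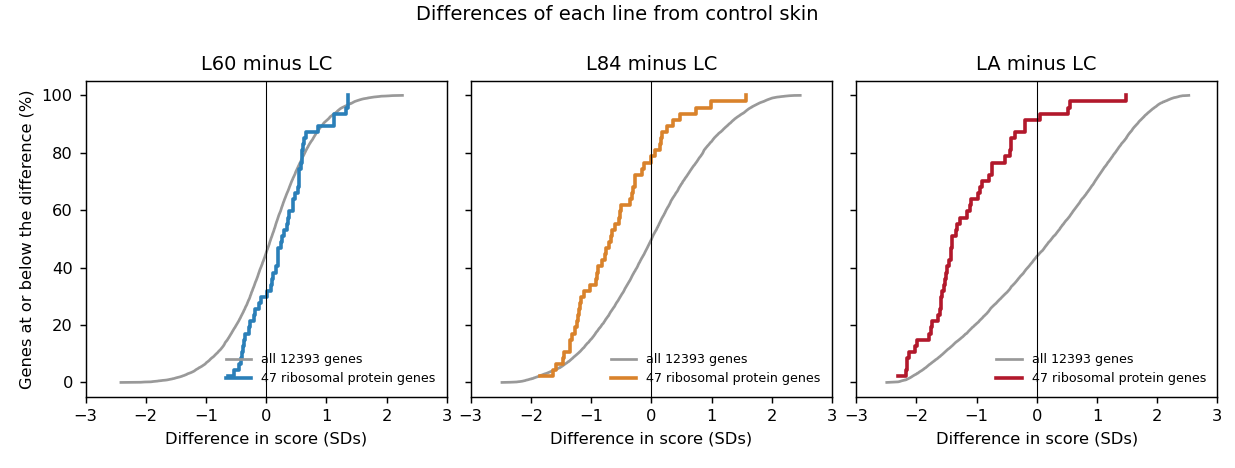
Cumulative share of genes (vertical axis, percent) against the difference from LC in SD units (horizontal axis) for L60, L84 and LA, for the 47 members and for all 12393 genes. The member curve lies to the left of the curve of all genes for L84 (medians -0.678 and 0.003) and LA (-1.40 and 0.247), and slightly to the right of it for L60 (0.261 and 0.0780).

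Rps26, a small subunit protein at the mRNA exit side of the ribosome, had the largest difference between LA and LC. It scored 0.901, 0.868 and 0.749 in LC, 0.108 and 0.868 in L60, 0.0750 and -0.630 in L84, and -1.03 and -1.91 in LA. The LA scores were below those of every other array, and the L84 scores below those of LC and L60. The difference between LA and LC was -2.31 ± 0.396 (SE; adjusted p = 0.0676, limma).

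Rpl35, a large subunit protein near the exit of the nascent chain, had the smallest adjusted p of the members. It scored 0.566, 0.571 and 0.845 in LC, 0.256 and 0.654 in L60, -0.304 and -0.910 in L84, and -0.660 and -1.02 in LA. Every score of L84 and LA was negative and below every score of LC and L60. The difference from LC was -1.50 ± 0.251 in LA (SE; adjusted p = 0.0654, limma) and -1.27 ± 0.251 in L84 (adjusted p = 0.169, limma). Its 6 probe sets did not all agree, with a lowest correlation of -0.581 between 2 of them. Without those ending in _x_at, which can hybridise with related sequences, the difference between LA and LC was -0.309. That value averages probe sets that went opposite ways. The one ending in _a_at scored between 0.188 and 1.29 in LC and -0.622 and -1.54 in LA. The plain _at one scored between -0.505 and -0.264 in LC and -0.264 and 2.25 in LA. The Rpl35 start carries the longest tract of those shown above.

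Rpl22l1, the paralog of Rpl22, scored 0.489, 1.46 and 1.01 in LC, 0.641 and 0.0640 in L60, -0.504 and -0.784 in L84, and -0.687 and -1.69 in LA. Its groups did not overlap in L84 or LA, and the difference between LA and LC was -2.17 ± 0.444 (SE; adjusted p = 0.0902, limma). Rpl22 itself, which was read by 2 probe sets, differed by -0.201 ± 0.655 (SE) in LA and 0.253 ± 0.655 in L84. These 2 probe sets correlated at -0.254 over the arrays. Without the one ending in _s_at, the Rpl22 difference between LA and LC was -1.96, so its contrast with Rpl22l1 depended on the probe sets taken. The difference between the paralogs was not tested.

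**Figure D4:**
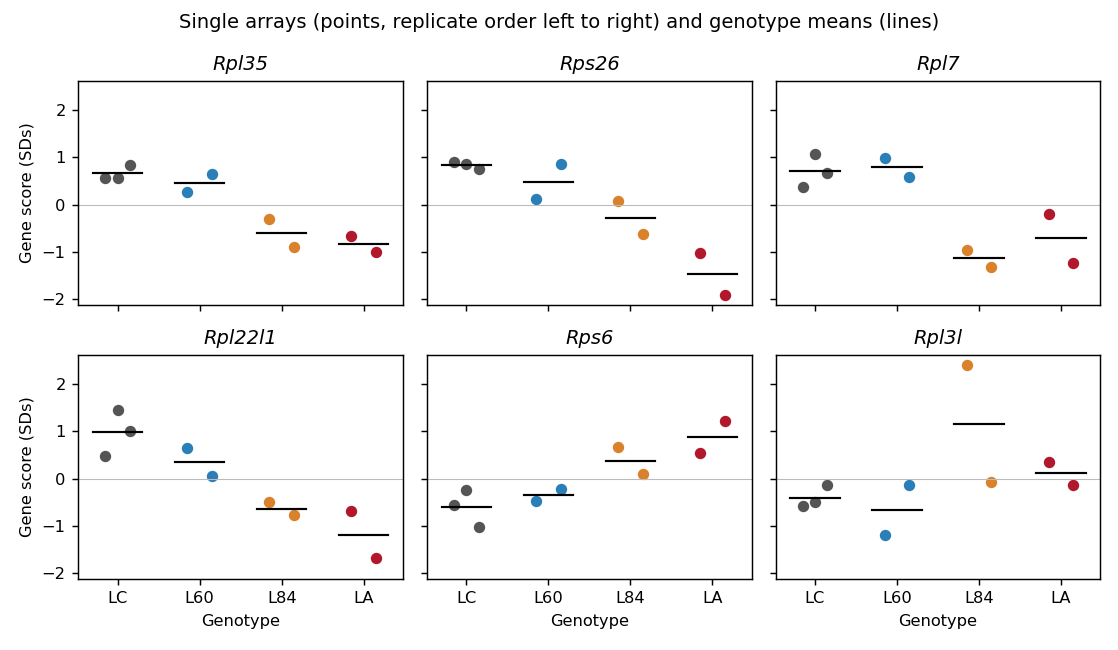
Scores of 6 named members (Rpl35, Rps26, Rpl7, Rpl22l1, Rps6 and Rpl3l) on each array (points), in SD units, by genotype with the group mean as a line. Rpl35, Rps26, Rpl7 and Rpl22l1 are lower on every L84 and LA array than on every LC and L60 array, Rps6 is higher there, and the highest Rpl3l score is a single L84 array at 2.41.

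In 17 members every L84 and LA array lay below every LC and L60 array, a pattern that 5.01% of all genes showed. They were Rpl7, Rpl8, Rpl10a, Rpl13a, Rpl14, Rpl22l1, Rpl27, Rpl35, Rpl38 and Rpl41 of the large subunit and Rps2, Rps3, Rps14, Rps15, Rps24, Rps26 and Rps28 of the small subunit. The reverse pattern was shown by 1 member, Rps6, and by 4.05% of all genes. Rpl14 scored 0.542, 0.943 and 0.561 in LC and -1.01 and -1.93 in LA, with a difference of -2.15 ± 0.445 (SE; adjusted p = 0.0918, limma). Rpl10a, the protein of the L1 stalk, scored 0.805, 0.901 and 0.319 in LC and -1.33 and -1.29 in LA, and differed by -1.98 ± 0.421 (SE). Its LA scores lay close together. Rps2, a small subunit protein of the mRNA entry side, differed by -2.15 ± 0.424 (SE) between LA and LC. It was read only by a probe set ending in _x_at. Rpl13a, which also serves in translational silencing, differed by -1.41 ± 0.389 (SE).

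Rpl38 and Rps14 were the 2 members in which both L60 arrays lay above, and all L84 and LA arrays below, all LC arrays (2.1% of all genes for L60 with LA, 1% for L60 with L84). Rpl38, known for the translation of Hox mRNAs and for the Tail-short mouse, scored 0.5, 0.771 and 0.169 in LC, 1 and 1.04 in L60, -0.588 and -0.869 in L84, and -0.0270 and -1.99 in LA. Its difference from LC was 0.538 in L60, -1.21 in L84 and -1.49 in LA. Rps14, a protein of the small subunit platform, scored 0.392, 0.340 and 0.409 in LC, 1.57 and 0.453 in L60, -0.346 and -0.428 in L84, and -0.584 and -1.81 in LA. The first L60 array was far above the other for Rps14, and the second LA array far below the other for both genes. Rpl38 and Rps14 were read only by probe sets ending in _x_at.

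Among the proteins of the stalk, which recruits translation factors to the large subunit, Rplp0 differed from LC by -0.516 in L84 and -1.16 in LA, and Rplp2 by -0.153 and -1.74. Rplp0 scored -1.16, 1.48 and 0.725 in LC, a range that held every score of the lines except the lowest in LA. Rplp2 scored 0.294, 0.224 and 0.992 in LC, -0.933 and 1.19 in L60, 0.952 and -0.252 in L84, and -0.690 and -1.78 in LA. Only in LA did both arrays lie below all LC arrays, and the first L60 score was lower than the first LA score. The LC scores of Rplp0 were thus spread as widely as nearly all of its scores.

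Rpl11, a large subunit protein that with Rpl5 restrains Mdm2 when ribosome production fails, differed by -0.0150 in L84 and -1.58 in LA, and Rpl27a, whose loss in the mouse raises p53, by -0.532 and -0.941. Among the small subunit proteins that are mutated in Diamond-Blackfan anaemia, Rps24 differed by -1.18 ± 0.284 (SE) in L84 and -1.28 ± 0.284 in LA, Rps19 by -0.353 and -1.53, and Rps7 by -0.272 and -1.46. Rps24 was read by 6 probe sets and scored 0.838, 0.413 and 0.467 in LC and -0.360 and -1.05 in LA. The median correlation between these probe sets was 0.35 and the lowest -0.453. Without those ending in _x_at the Rps24 difference in LA was -0.463. Rps3, which also acts in DNA repair, differed by -0.906 and -1.80, and Rpsa, the laminin receptor precursor, by -0.310 and -0.748. Rps20, altered in dark-skinned mice together with Rps19, differed by 0.162 in L84 and -0.430 in LA, the smallest difference in LA among these small subunit proteins. Its 4 probe sets disagreed, with a median correlation of -0.307. Without those ending in _x_at the Rps20 difference in LA was 0.752, so its direction depended on the probe sets taken.

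The pairs of paralogs did not share one pattern. Rps27l, a p53 target read by 3 probe sets, differed from LC by -0.884 in L84 and -2.03 in LA, and Rps27 by -0.653 and -0.969, with Rps27 scores of -2.00 and 0.958 in LA that lay far apart. Rps4l, a paralog of Rps4x, scored 0.992 and 0.676 in L84 and -1.30 and -1.71 in LA, giving differences of 0.744 and -1.60, while Rps4x differed by -1.45 and -0.443. Rpl39l, known for its use in the testis, differed by -0.269 and -0.787, and Rpl39 by 0.138 and 0.558. Rpl39 scored 0.830 and -0.613 in LA, so its sign there rests on the first LA array.

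Rps6 and Rpl3l ran against the other members. Rps6 scored -0.552, -0.244 and -1.03 in LC, -0.470 and -0.228 in L60, 0.670 and 0.0940 in L84, and 0.539 and 1.22 in LA. All L84 and LA arrays were above all LC and L60 arrays. The difference from LC was 0.991 ± 0.352 in L84 (SE; adjusted p = 0.382, limma) and 1.49 ± 0.352 in LA (adjusted p = 0.114, limma). Only 2 probe sets named Rps6 alone, and they correlated at -0.014 over the arrays. When the probe sets shared with its pseudogene were averaged in, an alternative chosen after seeing the data, the differences became -0.894 in L84 and -0.737 in LA, so the direction of Rps6 depended on the probe sets taken.

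Rpl3l, the striated muscle paralog of Rpl3, scored -0.578, -0.494 and -0.138 in LC, -1.20 and -0.138 in L60, 2.41 and -0.0750 in L84, and 0.357 and -0.138 in LA. The first L84 array gave the highest score and 3 arrays tied at -0.138. The 8 skeletal muscle markers had medians between -0.686 and -0.499 in LC, 1.39 and 0.181 in L84, and 1.04 and 0.493 in LA, and were highest on the same first L84 array. The part of muscle in the Rpl3l scores was not tested.

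Between the lines, L84 and LA scored below L60. The median difference between L84 and L60 was -0.967 (-0.0750 over all genes), with 42 of 47 members lower (53.4% of all genes), and between LA and L60 it was -1.54 (0.164), with 45 lower (45.5%). The arrays did not overlap for 28 members lower in L84 than in L60 (17.5% of all genes) and 34 lower in LA than in L60 (23.7%). Between LA and L84 the median difference was -0.592 (0.117), with 40 lower (46.4%) and 16 not overlapping (13.6%), but it was 0.0760 once the arrays of widest scores, the second of LA and the first of L84, were left out. No member passed the adjusted threshold in any of these limma comparisons (0.113%, 0.629% and 0.0161% of all genes), or in the F test over the 4 genotypes (0.734%). At an unadjusted p under 0.05, 9 members were lower in L84 than in L60 (4.94% of all genes) and 0 higher (3.09%). Between LA and L60, 25 were lower (8.32%) and 1 higher (7.84%), and between LA and L84, 4 were lower (3.6%) and 0 higher (7.03%). In the moderated test 0 members were called, with 8, 25 and 2 at the unadjusted threshold (6.93%, 18.6% and 12.6% of all genes). The F test had 15 members at that threshold (14.8% of all genes).

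Probe sets of a member did not always agree. Of the 22 members with more than 1 probe set, 10 had a median correlation above 0.5 between their probe sets and 10 had at least 1 pair below 0. The differences also followed the kind of probe set. Those with the suffix _x_at, which can hybridise with related sequences, had a median difference of -1.64 between LA and LC over 40 probe sets (39 lower; -0.156 over the 1282 such probe sets of all genes), those with _a_at -1.53 over 28 (26 lower; -0.109), and plain _at probe sets -0.538 over 28 (17 lower; 0.327). The 2 probe sets with _s_at had a median of 0.517 (-0.245). Each of the other 3 kinds was below its own background in LA, and in L84 the medians were -1.19, -0.942 and -0.283. Without _x_at and _s_at probe sets, 42 members remained, with medians of 0.278 in L60, -0.586 in L84 and -1.22 in LA. Many ribosomal protein genes have processed pseudogenes, so signal from copies cannot be told apart from that of the gene.

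Other genes of translation were read beside the members. The 74 mitochondrial ribosomal protein genes, which form a separate ribosome, had a median difference from LC of 0.0940 in L60, -0.246 in L84 (49 lower) and -1.06 in LA (68 lower). Of the 74, 2 fell in LA and passed the limma test, as did 1.8% of all genes in either direction: Mrpl36 (-2.48 ± 0.313, SE; adjusted p = 0.0382, limma) and Mrps12 (-2.40 ± 0.177, SE; adjusted p = 0.0102, limma). Mrps12 scored 0.621, 0.615 and 0.830 in LC and -1.54 and -1.89 in LA, and Mrpl36 scored 1.30, 0.620 and 1.14 in LC and -1.31 and -1.62 in LA. The call was kept in 5 of 17 alternatives for Mrpl36 (adjusted p between 0.0278 and 0.235) and in 8 of 16 for Mrps12 (between 0.00535 and 0.18). The 18 measured genes among 22 other TOP mRNAs, such as elongation factors, had medians of 0.354, -0.472 and -0.743, with 15 lower in LA and 0 passing the limma test (4 lower at an unadjusted p under 0.05, against 9.91% of all genes, and 5 in the moderated test, against 26%). The 28 measured genes of ribosome assembly and rRNA synthesis had medians of -0.0480, -0.776 and -1.59, with all 28 lower in LA, 22 of them without overlap (21% of all genes) and 0 passing the limma test (14 lower at an unadjusted p under 0.05, and 16 in the moderated test). Of the 14 measured genes of the Akt and mTORC1 arm, 8 were lower and 6 higher in LA, with a median of -0.334 and 1 passing.

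**Figure D5:**
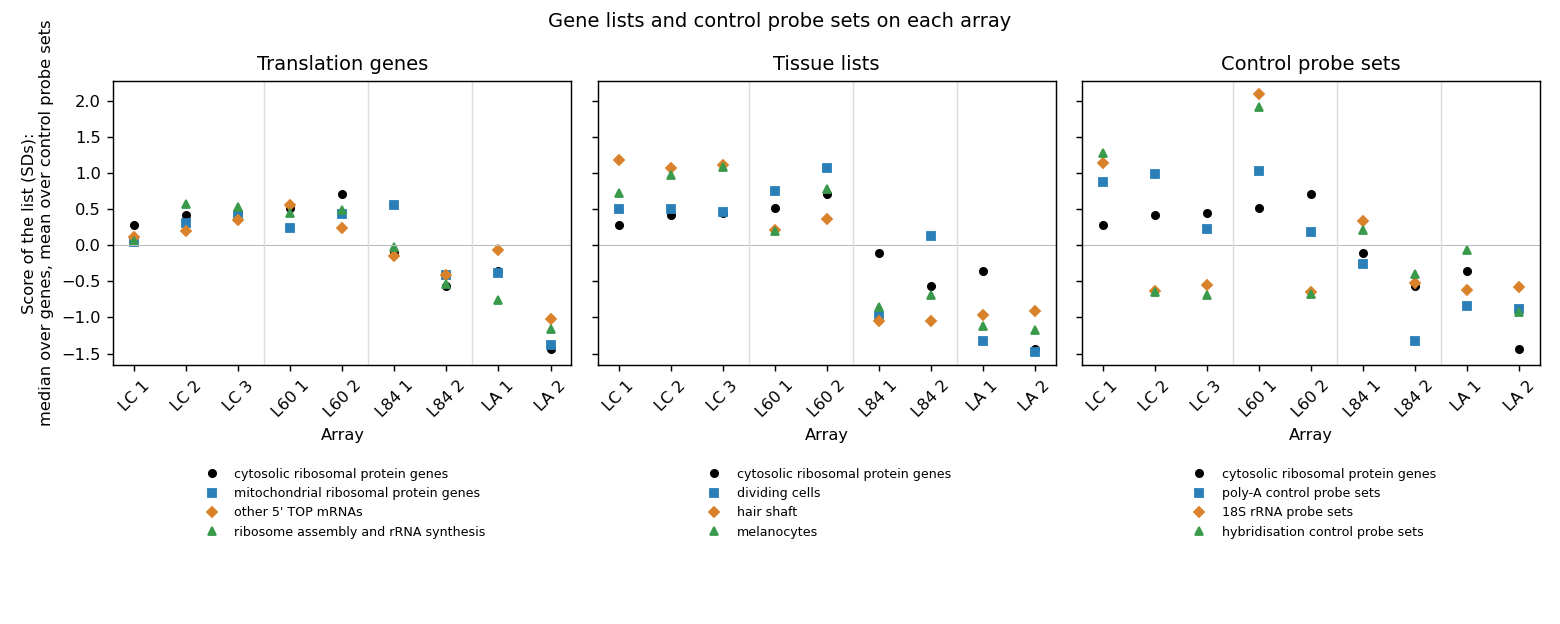
Median score of gene lists on each of the 9 arrays (horizontal axis) in SD units, in 3 panels: genes of translation, tissue markers, and the mean of the control probe sets. The translation lists are lowest on the second LA array, and the markers of dividing cells, hair shaft and melanocytes are lower in LA than in LC.

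Npm1, a nucleolar factor of ribosome assembly whose mRNA is of the TOP class, differed from LC by -2.11 ± 0.331 in LA (SE; adjusted p = 0.0592, limma) and -1.43 ± 0.331 in L84 (adjusted p = 0.216, limma). The elongation factor subunit Eef1b2 differed by -1.83 ± 0.669 (SE) in LA (-2.68 to -0.975 when a replicate was left out), and Eef1d by -1.42 ± 0.308 (SE) in L84. The assembly factors Rrs1 and Nop58 differed by -2.19 ± 0.539 and -2.17 ± 0.543 (SE) in LA, and Rrp9 and Bop1 by -1.59 (-2.46 to -0.728) and -1.55 in L84. In L60, Fau, which encodes the small subunit protein S30 fused to a ubiquitin-like protein, differed by 1.83 ± 0.790 (SE; 0.782 to 2.89 when a replicate was left out), Eif4a2, a translation initiation helicase, by 1.58 (0.759 to 2.39), and Polr1b, a subunit of RNA polymerase I, by -1.24 (-1.91 to -0.572).

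Of the Akt and mTORC1 arm, Eif4e, the cap-binding initiation factor, fell in LA. It scored 0.470, 0.517 and 0.279 in LC, 0.202 and 0.156 in L60, -0.179 and -0.0780 in L84, and -0.913 and -0.454 in LA. The groups of LC, L60, L84 and LA followed in that order without overlap. The difference between LA and LC was -1.11 ± 0.155 (SE; adjusted p = 0.0475, limma), and the call was kept in 1 of 18 alternatives, with adjusted p between 0.0474 and 0.269. Larp1, which binds TOP mRNAs, scored 0.693, 0.568 and 0.514 in LC, 0.430 and -1.92 in L84, and -0.0790 and -1.49 in LA. Its difference from LC was -1.34 in L84 (-2.51 to -0.162 when a replicate was left out) and -1.38 in LA (-2.08 to -0.671), so its size rested on the second array of each line. Rictor, of the mTORC2 complex, differed by 1.46 in LA (0.346 to 2.56), with LA scores of 0.214 and 2.43. Akt1 differed by 1.23 ± 0.594 (SE) in L84, Akt2 by -0.920 (-1.42 to -0.568) and Rps6kb2, an S6 kinase, by -0.890 (-1.81 to 0.03) in L60. None of these passed the threshold. Myc, of the assembly list, which drives genes of ribosome assembly, scored -0.755, -0.133 and -0.133 in LC, 1.62 and 1.60 in L60, 0.0450 and -0.709 in L84, and -0.242 and -1.29 in LA. Both L60 scores of Myc were above those of every other array, and the difference from LC was 1.95 ± 0.426 (SE; adjusted p = 0.689, limma).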

How the data were processed

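Whole skin RNA of 9 pools was hybridised to 9 Affymetrix arrays. The deposited values are scores with mean 0 and SD 1 per probe set over the arrays, as measured from the file; the submitters' processing notes name RMA, and whether the values were logged first is not given in the sources used here. Of 22690 probe sets, 64 are controls, 20380 name 1 gene in the platform annotation, 691 several and 1555 none. Probe sets naming a gene alone were averaged. All 98 member probe sets had a current symbol equal to the annotated symbol. A limma 3.58.1 (R 4.3.3) linear model over all 9 arrays, with no variance moderation because standardising fixes the spread, was fitted to 12393 genes, with Benjamini-Hochberg adjustment per contrast and a threshold of 0.05. On simulated data for LA minus LC over 12393 genes, the test called 53.5% of 200 genes shifted by 5 residual SDs and 100% of 200 shifted by 10 (with 26 unchanged genes called too); the moderated test called 0%. Depth is not defined for arrays, and the number of arrays limits the precision. No array pair held identical values. The members and lists were chosen with earlier results of these data known. Members named are those that passed, the 3 highest and 3 lowest per line against LC, and a fixed set, plus 2 genes per list and line, which includes Rps6. Rpl35, Rps2, Rps14, Rps10 and the 17 genes below both LC and L60 were added after their values were seen. Alternatives were other normalisations, probe set filters, left-out arrays, a replicate block and the moderated test.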

Additional observations from a re-analysis of the deposited data

Results flagged for a closer look

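In Rpl38 and Rps14 both L60 arrays lay above all LC arrays while both L84 and both LA arrays lay below them. Both genes were read only by probe sets ending in _x_at, which can hybridise with related sequences. The genes were picked for this pattern, and neither L60 difference passed: 0.538 ± 0.598 (SE; adjusted p = 1, limma) for Rpl38 and 0.631 ± 0.479 (adjusted p = 1, limma) for Rps14, whose second L60 score of 0.453 lay just above the highest LC score of 0.409. The difference between LA and L60 was -2.025 ± 0.655 (SE; adjusted p = 0.251, limma) for Rpl38 and -2.206 ± 0.524 (adjusted p = 0.169, limma) for Rps14. Between L84 and L60 it was -1.746 ± 0.655 (adjusted p = 0.596, limma) for Rpl38 and -1.398 ± 0.524 (adjusted p = 0.596, limma) for Rps14. None of these passed the threshold.

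For the median over the 47 members, both L60 medians lay above and all L84 and LA medians below the LC medians. The L60 difference of 0.261 was smaller than the pooled SD of the member median within genotypes, 0.379. The median member difference was -0.967 between L84 and L60 and -1.541 between LA and L60. The difference of these medians was not tested.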

How the results depend on the processing

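Of the counts of members passing and the median differences, 218 alternative values kept direction and moved by less than the spread within genotypes (for counts, by no more than 1.5 times), 14 moved further and 1 reversed. Many of the 218 were counts of 0 that stayed 0, which have no direction, among them those of the moderated test. Others left out an array of a genotype not compared, which cannot change a median difference. The tally is therefore no measure of how stable the results are. With array medians set to 0, with every probe set on its own, or with the probe sets shared with pseudogenes (chosen after seeing the data), 1 member passed between LA and LC instead of 0; leaving out a replicate gave 0 to 1. These were Rpl35 (-1.63, adjusted p = 0.0435; as a single probe set -2.23, adjusted p = 0.0295, limma), Rpl24, which is no member otherwise (-1.17, adjusted p = 0.0425, limma), Rps2 without the first LC array (-2.54, adjusted p = 0.0403, limma) and Rpl10a without either L84 array (-1.98, adjusted p = 0.0427, limma). Leaving out a replicate moved the median difference between 0.141 and 0.303 for L60 against LC, -0.839 and -0.532 for L84 against LC, -1.153 and -0.759 for L84 against L60, -1.823 and -0.895 for LA against LC, -2.005 and -1.115 for LA against L60, and -1.038 and -0.158 for LA against L84. Without the arrays of widest scores, the first of L84 and the second of LA, these were -0.895, -1.115 and 0.076. The probe sets averaged for Rpl24 disagreed in L84 and LA, as given below. Averaging in shared probe sets turned Rps6 to -0.894 in L84 and -0.737 in LA and Rpl39 to -0.5 in LA. Leaving out a replicate moved Rpl39 in LA between -0.164 and 1.28 and Rps6kb2 in L60 between -1.81 and 0.03. Npm1 passed in LA with every probe set on its own. With the replicate number as a block, 0 members passed in any comparison and the median difference between LA and LC was -1.332; same-numbered arrays correlated between -0.083 and 0.345 in their deviations over all genes and between -0.193 and 0.351 over the members. Not every pair was above 0.1, so the numbers were not taken to pair the samples, although 18S probe sets were high on the first arrays of LC, L60 and L84. Signal over background cannot be read from scores, so low-signal probe sets could not be set aside, and 9 arrays in 4 groups leave 5 residual degrees of freedom.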

Other observations

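Including the probe sets that share a ribosomal protein gene with pseudogene names only, an alternative chosen after seeing the data, brought in 25 further genes. Their median difference from LC was 0.236 in L60, -0.581 in L84 (20 of 25 lower) and -1.22 in LA (24 of 25 lower). In LA, 7 were lower at an unadjusted p under 0.05 (9.91% of the 12393 genes), and 13 had both LA arrays below all LC arrays (21%). Rpl24, a large subunit protein that is altered in the belly spot and tail mouse, scored 0.439, 0.346 and 0.633 in LC, 0.866 and 0.472 in L60, -0.597 and -0.766 in L84, and -0.630 and -0.762 in LA. All 4 arrays of L84 and LA lay below all 5 of LC and L60. The difference between LA and LC was -1.17 ± 0.155 (SE; adjusted p = 0.0425, limma). These Rpl24 scores average probe sets that disagreed. The one ending in _x_at scored -1.48 and -1.49 in L84 but -0.119 and 0.372 in LA. The one ending in _a_at scored 0.287 and -0.0473 in L84 but -1.14 and -1.90 in LA. Neither probe set alone separated L84 and LA from LC and L60. Rpl5, which acts with Rpl11 on Mdm2, scored 1.31 and 0.804 in L60, above every LC score of -0.050, -0.942 and -0.270. Rpl10, linked in man to autism, had the only positive difference in LA, 0.472 ± 0.875 (SE), with scores of 1.46 and -0.996.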
